A study of Mus musculus with 8 samples.

Results

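S100 proteins and their annexin partners were followed in mouse embryonic stem cells (mESCs) with and without morphine, an opioid analgesic. The genes were S100a10, S100a11, S100a13, S100a1, S100a4 and S100a6, and Anxa1, Anxa2, Anxa5 and Anxa6. Each was taken as the locus of the RNA-Seq count table whose most frequent gene name is that symbol, which gave 10 of 44396 loci, 1 for each gene. The genes were selected on results that include this RNA contrast, with the fall of S100a10 already known, so their RNA values are given as a description, without p-values, and whether a gene was called in the fit across all loci is part of that description. H3K27me3 peaks played no part in the choice.

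All cells were Oct4-GFP mESCs, which carry GFP under the Oct4 promoter, grown on gelatin without feeder cells. Control cells received medium with 0.9% NaCl, and treated cells received 10 µM morphine for 24 h. From each condition there were 2 RNA-Seq libraries of poly(A) RNA and 2 ChIP-Seq peak lists of H3K27me3, the histone mark that PRC2 places on silent chromatin, 8 libraries in all. The paper calls the ChIP-Seq replicates biological, and the RNA-Seq ones only duplicate samples without saying whether they were separate cultures, so an RNA-Seq p-value measures the spread between these samples, which may be technical.

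S100 proteins are small proteins with a pair of EF-hand motifs, helix-loop-helix folds that in most members bind calcium and then expose a surface for partner proteins. Annexins bind phospholipid membranes in the presence of calcium. S100A10, also called p11, is the exception among S100 proteins in that its EF hands no longer bind calcium. It joins annexin A2 in a heterotetramer at the plasma membrane, where the complex takes part in plasminogen activation and in the delivery of channels and receptors to the cell surface.

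S100a10 was the only gene of the 10 called in the RNA-Seq comparison, at an FDR of 0.05 by edgeR's quasi-likelihood test across 20350 loci. Since this fall entered the choice of the genes, its call describes these libraries and supports nothing further. It fell by 0.59 on the log2 scale (SE 0.06), while Anxa2, the gene of its partner, stood 0.35 higher (SE 0.12) and was not called. A weak H3K27me3 peak lay just upstream of S100a10 in both control libraries and in neither morphine library, and a stronger peak lay at the start of Anxa2 in all 4 libraries.

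A sequence at each of these peaks is shown because the peaks are described below. The first is the middle 300 bp of the region shared by both control peaks upstream of S100a10 (mm10, chr3:93552804-93553103, forward strand). The second is the RefSeq promoter of Anxa2 up to its first annotated start site (GRCm38.p6, chr9:69453433-69453619, forward strand, 187 bp). The Anxa2 peak reached part of this promoter window in control 1 and morphine 2, all of it in morphine 1 and none of it in control 2. Capitals mark CpG dinucleotides, the usual context of Polycomb-bound promoters in mESCs.
S100a10 upstream peak, middle: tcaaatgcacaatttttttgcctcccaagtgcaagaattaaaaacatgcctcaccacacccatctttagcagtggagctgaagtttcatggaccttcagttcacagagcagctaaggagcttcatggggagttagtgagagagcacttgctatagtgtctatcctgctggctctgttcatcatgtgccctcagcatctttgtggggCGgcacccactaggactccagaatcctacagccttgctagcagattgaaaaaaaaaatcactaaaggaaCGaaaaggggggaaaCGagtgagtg
Anxa2 promoter, before the start site: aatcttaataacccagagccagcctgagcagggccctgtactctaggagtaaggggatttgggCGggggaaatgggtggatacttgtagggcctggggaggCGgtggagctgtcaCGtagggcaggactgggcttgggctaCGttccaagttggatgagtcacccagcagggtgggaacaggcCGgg

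The S100a10 window held 3 CpGs in 300 bp at a GC content of 46.7%, and its ratio of observed to expected CpG was 0.184. The middle 300 bp of all H3K27me3 peaks held a median of 3, 2, 4 and 3 CpGs in control 1, control 2, morphine 1 and morphine 2, so the window upstream of S100a10 was ordinary in CpG for a peak of these libraries. The Anxa2 window held 5 CpGs at a GC content of 59.9% (observed to expected 0.337), against a median of 4 over the same stretch of 32851 RefSeq promoters. It held 1 match of the GC box, searched as GGGCGG and its reverse complement CCGCCC, a motif found in 22.2% of those windows. It held no match of TATAAA or its reverse complement TTTATA, which 8.62% of the windows held. The windows were the first 187 bp of each promoter sequence. They need not end at a start site, as the Anxa2 window does, so these shares and the median are not a like comparison. Promoter sequences were found for 8 of the 10 genes. Over the first 250 bp of these sequences, Anxa2 held 9 CpGs. For Anxa2 this stretch runs past the start site used here. S100a11 held more with 11, as did S100a13 and Anxa5 with 13 each. S100a1 held fewer with 8, as did S100a6 with 3 and S100a4 and Anxa1 with 2 each. None of these other genes had an H3K27me3 peak there.

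The upstream peak of S100a10 spanned chr3:93552006-93553901 (mm10, 1896 bp) in control 1 and chr3:93551953-93554013 (2061 bp) in control 2. Its nearer edge lay 1179 bp and 1067 bp upstream of the TSS (transcription start site) at position 93555080, outside the 1 kb promoter window used here, and no GENCODE gene lay under it. No peak was called within 50 kb of the S100a10 TSS in either morphine library. The score deposited with each peak (the log10 of its p-value multiplied by -10) was 68.8 in control 1 and 59.9 in control 2, higher than only 32.8% and 19.7% of the peaks of the same list. The median score of the 4 lists ran from 83.1 to 84.2, so this peak was among the weaker ones in both controls.

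Within 5 kb of the TSS, a window chosen after the distance of the peak had been seen, S100a10 was the only gene of the 10 with a peak in both control libraries and in neither morphine library. The same was found for 163 of 14204 tested genes with an annotated TSS (1.15%), and the reverse, a peak in both morphine libraries and neither control library, also for 163 genes (1.15%). With a score of at least 100 the S100a10 peak was absent from every library. With equal numbers of the strongest peaks (8681 in each list) it was present in control 1 only. The lists hold no read counts, so presence or absence of a called peak was compared, and the amount of H3K27me3 was not.

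The Anxa2 peak spanned chr9:69453483-69456695 in control 1 and chr9:69453875-69456897 in control 2, then chr9:69453375-69456411 in morphine 1 and chr9:69453505-69456942 in morphine 2. It covered the TSS at 69453620 in control 1 and in both morphine libraries, and in control 2 it began 255 bp downstream of the TSS. In each library it ran about as far into the gene, ending 3075 bp and 3277 bp downstream of the TSS in the controls and 2791 bp and 3322 bp in the morphine libraries, over annotated exon and intron of Anxa2. Its score was 167 and 149 in the controls and 210 and 174 after morphine, above 82.1% to 93.0% of the peaks of each list. Anxa2 was the only gene of the 10 with a peak within 1 kb of a TSS in any library. Over the 14204 genes, 14.6% had such a promoter peak in all 4 libraries.

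**Figure D1:**
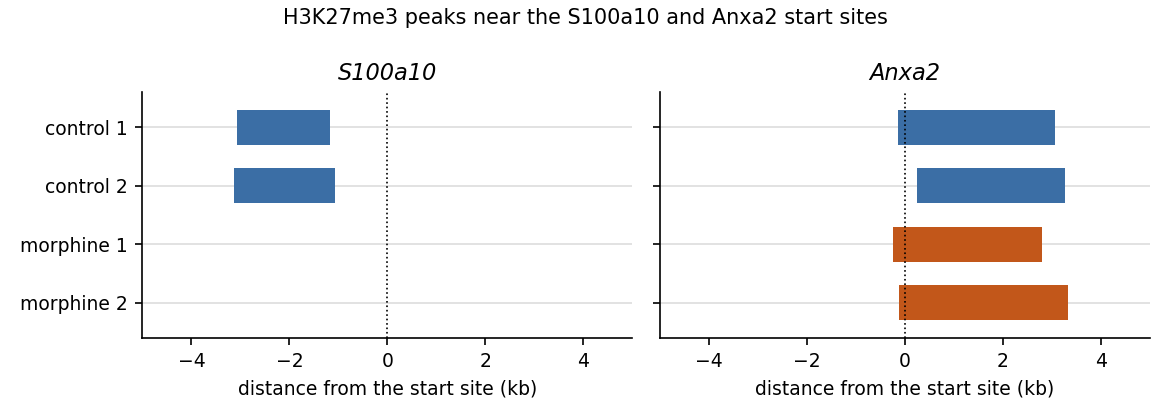
H3K27me3 peaks within 5 kb of the first annotated TSS of S100a10 (left) and Anxa2 (right), with distance along the gene's strand in kb on the horizontal axis and 1 row for each library (control in blue, morphine in orange). The S100a10 peak ends 1179 bp and 1067 bp before the TSS in the controls and is missing from both morphine rows. Anxa2 carries a peak in all 4 rows, over its TSS except in control 2, where it begins 255 bp downstream.

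Total counts ran from 25081266 to 29531096 per RNA-Seq library. Levels are given as CPM (counts scaled to the TMM-normalized size of each library), and per kb of transcript where genes are compared. Of the 20350 loci tested, 309 (1.52%) were called, 184 lower (0.904%) and 125 higher (0.614%) after morphine. This split moved with the scaling, to 234 lower and 281 higher with total counts and to 39 lower and 61 higher once trends with locus length and GC content were removed. Of the 10 genes, 9 passed the filter on low counts, 1 was called lower and 8 were not called. Since the genes were chosen from this contrast, nothing is read from that share. Across the 9 tested genes the median log2 fold change was 0.08, against 0.00129 over all loci tested. Control and morphine libraries were separate, with no overlap in CPM, for 7 of the 9 genes and for 52.7% of all loci tested.

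S100a10 (chr3:93555117-93564645, forward strand, 3 exons, 650 bp of transcript) had 1800 and 1830 counts in the controls and 1082 and 1179 after morphine. Its CPM was 65.5 and 62.2 in the controls and 42.8 and 41.9 in the morphine libraries. Both morphine libraries lay well below both controls. The mean went from 63.8 ± 2.37 to 42.3 ± 0.633 CPM (SD, n = 2), 33.7% lower. In these bulk samples fewer cells with the transcript and less of it per cell cannot be told apart. The call was lost without morphine replicate 1 (-0.61 on the log2 scale), where only 6 loci were called in all.

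S100a10 was an abundant transcript, with only 4.16% of tested loci at or above its mean level per kb. Its fall ranked 34 among the 184 called falls. Of those falls, 107 were in loci with at least its mean CPM in the controls, and 12 of these, S100a10 among them, fell at least as much. The others of these 12 carried no gene name or only a sequence identifier, apart from Mir6236, and all were named here after their values were seen. Loci richer in GC tended to have higher log2 fold changes (Spearman's correlation 0.485 across loci, a description), and S100a10 had 49.7% GC, the median of the tested loci. With the trends in length and GC removed its log2 fold change was -0.60.

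Anxa2 (chr9:69453683-69491785, forward strand, 13 exons) had 222 and 306 counts in the controls and 297 and 332 after morphine. Its CPM was 8.08 and 10.4 in the controls and 11.7 and 11.8 after morphine. The morphine libraries lay close together and above both controls, and the controls differed from each other by more than control 2 differed from morphine 1. The mean was 9.24 ± 1.64 CPM in the control and 11.8 ± 0.0367 CPM after morphine (SD, n = 2). The log2 fold change of 0.35 ranged from 0.18 without control replicate 1 to 0.54 without control replicate 2, the only library whose removal gave a call. The antisense gene Gm16144 overlaps its exons, and whether the counting used strand is not stated.

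The transcript ratio of S100a10 to its partner followed from these values. Per kb, S100a10 stood 32.3 and 23.8 times above Anxa2 in the control libraries, and 14.5 and 14.1 times above it in the morphine libraries. The range of the controls did not reach that of the morphine libraries. S100a10 was chosen with its fall known, so this separation was partly built in and supports nothing further. The same holds for every share or ratio with S100a10 given here. S100a10 made up 45.1% and 42.7% of the summed level per kb of the 10 genes in the controls and 32.5% and 32.0% after morphine, and it remained the most abundant of them in every library.

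S100a11, which lies next to S100a10 on chromosome 3 (chr3:93520496-93526288, forward strand) and encodes a partner of annexin A1, had 516, 587, 556 and 627 counts in control 1, control 2, morphine 1 and morphine 2. Its CPM was 18.8 and 19.9 in the controls and 22.0 and 22.3 after morphine. Its libraries did not overlap, with the morphine libraries higher, and its log2 fold change was 0.19 (SE 0.07), which was not called. The ratio of S100a10 to S100a11 per kb was 2.70 and 2.42 in the controls and 1.51 and 1.46 after morphine. On the other side, an unnamed locus within 200 kb had 33 and 26 counts in the controls and 21 and 31 after morphine. Tchh, the gene of the hair follicle protein trichohyalin, had 25 and 28 counts in the controls and 26 and 25 after morphine. The remaining annotated neighbours within 200 kb (Rptn, Tchhl1, Tdpoz2 and Tdpoz1) had at most 2 counts in any library.

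The other S100 genes sit in a separate cluster on the same chromosome. S100a6 (chr3:90612894-90614415), the gene of calcyclin, had 7.35 and 7.51 CPM in the controls and 7.47 and 7.99 CPM after morphine, with overlapping libraries and a log2 fold change of 0.06 (SE 0.11). S100a13 (chr3:90514435-90524581), whose protein takes part in the export of FGF1, had 4.26 and 3.53 CPM in the controls and 4.98 and 4.19 CPM after morphine, again overlapping, with a log2 fold change of 0.23 (SE 0.16). S100a1 (chr3:90511034-90514330, reverse strand), best known from calcium handling in heart muscle, was near the lower end with 29 and 26 counts in the controls and 21 in each morphine library. Its log2 fold change of -0.30 had an SE of 0.30. None of these 3 genes was called.

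S100a4, a gene of migrating mesenchymal cells, was not detectable at this depth. It had 0 counts in both controls and in morphine 1 and 1 count in morphine 2, under the limit of 3 counts that a count of 0 allows, which equals 0.102 to 0.120 CPM on the library totals. It did not pass the filter on low counts, and no fold change is given. The gene Gm42674 overlaps its exons.

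Among the remaining annexins, Anxa6 (chr11:54978962-55033831, reverse strand), whose protein has a duplicated annexin core, was the most abundant by CPM. It had 169 and 178 CPM in the controls and 184 and 182 CPM after morphine, a log2 fold change of 0.08 (SE 0.05). Anxa5 (chr3:36448923-36475887, reverse strand), the gene of the phosphatidylserine-binding annexin used to stain dying cells, had 15.5 and 16.3 CPM in the controls and 17.0 and 18.0 CPM after morphine (0.14, SE 0.08 on the log2 scale). Anxa1 (chr19:20373434-20390672, reverse strand), whose protein dampens inflammation, had 6.73 and 7.47 CPM in the controls and 6.25 and 6.61 CPM after morphine (-0.14, SE 0.12 on the log2 scale). Control and morphine libraries were separate for each of the 3, and none was called. The opposite strand of Anxa1 holds the lincRNA 1500015L24Rik. The mouse annotation lists S100a11 and Anxa2 copies, S100a11-ps and Anxa2rp, so some reads of these 2 genes may be uncertain.

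**Figure D2:**
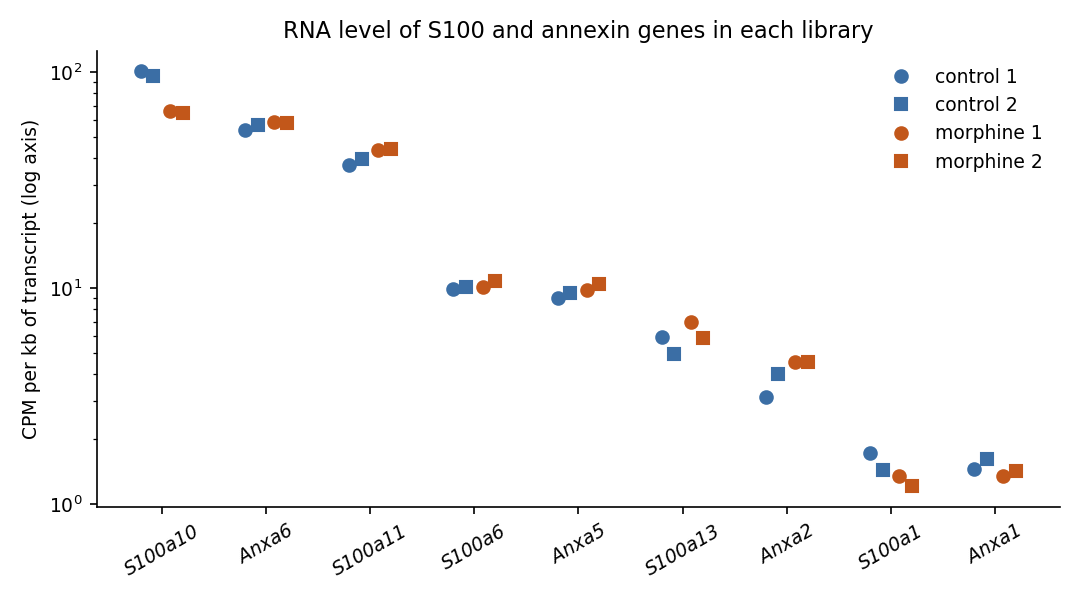
RNA level of the 9 tested genes in each library, in CPM per kb of transcript on a log axis, ordered by the control mean (control in blue and morphine in orange, replicate 1 as circles and replicate 2 as squares). S100a10 runs from 95.6 to 101 in the controls and from 64.4 to 65.8 after morphine. S100a4, with 1 count in all libraries together, is not drawn.

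By level per kb the order in the controls was S100a10 at 98.2 ± 3.65 CPM per kb, Anxa6 at 55.7 ± 2.09, S100a11 at 38.4 ± 1.62, S100a6 at 10.0 ± 0.147, Anxa5 at 9.22 ± 0.343, S100a13 at 5.45 ± 0.718, Anxa2 at 3.57 ± 0.632, S100a1 at 1.58 ± 0.198 and Anxa1 at 1.53 ± 0.113 CPM per kb (SD, n = 2). After morphine it was S100a10 at 65.1 ± 0.973, Anxa6 at 58.8 ± 0.431, S100a11 at 43.9 ± 0.409, S100a6 at 10.4 ± 0.496, Anxa5 at 10.2 ± 0.445, S100a13 at 6.41 ± 0.781, Anxa2 at 4.55 ± 0.0142, Anxa1 at 1.38 ± 0.0549 and S100a1 at 1.28 ± 0.0969 CPM per kb. S100a1 and Anxa1 overlapped in the controls and again after morphine, and S100a6 and Anxa5 overlapped after morphine. The gap between S100a10 and Anxa6 narrowed, with Anxa6 at 0.538 and 0.598 of the level of S100a10 in the controls and at 0.898 and 0.908 of it after morphine.

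The 18 other S100 and annexin genes of the mouse were looked at beside these. Of them, 8 passed the filter on low counts and none was called in either direction (1.52% of all loci were), with a median log2 fold change of 0.13. At an unadjusted p under 0.05, which 20.5% of all loci tested reached, 2 of the 8 passed by this test. None of the 14 alternatives called any. DESeq2 gave no adjusted p to S100a11, and S100a16, Anxa3, Anxa8, Anxa9 and Anxa10 had fewer counts than S100a11. The lack of a DESeq2 call therefore shows nothing for genes at such counts. Anxa7, the most abundant per kb, had a log2 fold change of 0.12 (SE 0.05), and Anxa4 (0.12, SE 0.06), Anxa11 (0.16, SE 0.06), Anxa8 (0.21, SE 0.11), Anxa3 (0.06, SE 0.13) and Anxa9 (0.14, SE 0.22) also lay above 0. The most abundant 6 leave out S100a16 (0.45, SE 0.32) and Anxa10, the only one of the 8 below 0, which are named after their values were seen. Anxa10 had few counts (-0.55, SE 0.46, with 18 and 10 counts in the controls and 7 and 11 after morphine). S100a5, S100a7a, S100a8, S100a9 and S100z had 0 counts in every library.

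**Figure D3:**
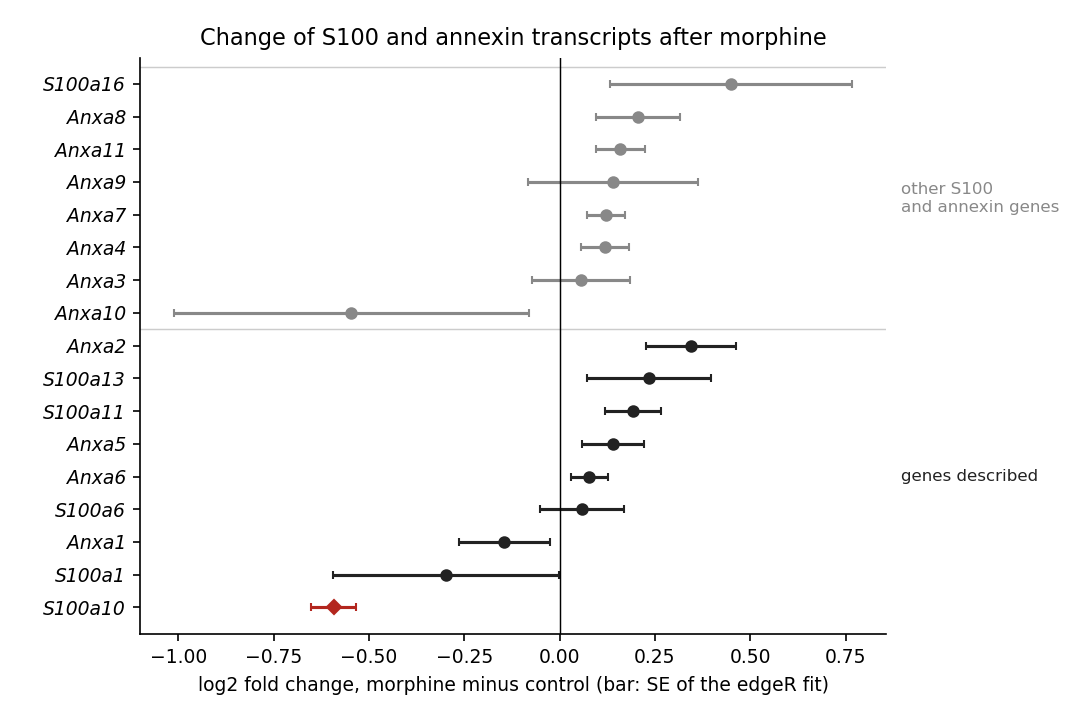
Log2 fold change (morphine minus control) of the 9 tested genes described here and of the 8 other S100 and annexin genes that passed the filter, with bars for the SE of the edgeR fit (n = 2 in each condition). S100a10, the red diamond at -0.59, is the only gene drawn that was called.

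Of 23 partners and targets of these proteins, 16 were tested, and 1 was called (1.52% of all loci were), while 5 reached an unadjusted p under 0.05 (20.5% of all loci did). Plaur, the receptor that holds urokinase at the cell surface and so acts beside S100A10 and annexin A2 in plasminogen activation, had 372 and 428 counts in the controls and 550 and 496 after morphine. Its CPM was 13.5 and 14.5 in the controls and 21.7 and 17.6 after morphine. It rose with a log2 fold change of 0.48 (SE 0.10, adjusted p = 0.0474 by edgeR's quasi-likelihood test with Benjamini-Hochberg adjustment over all loci, higher in 2 of 2 libraries). This edgeR call was lost when length and GC trends were removed (0.38, adjusted p = 0.104) and without morphine replicate 1 (0.33, adjusted p = 0.492), and DESeq2 gave Plaur no adjusted p (0.49). The median log2 fold change of the 16 was -0.02.

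Of 23 other EF-hand proteins, 21 were tested and none was called by edgeR's quasi-likelihood test (5 at an unadjusted p under 0.05, beside 20.5% of all loci), with a median log2 fold change of 0.02. The most abundant per kb were Calm2 (-0.01, SE 0.04 on the log2 scale), Capns1 (0.11, SE 0.04), Calu (-0.03, SE 0.04), Cetn3 (-0.08, SE 0.05), Calm3 (0.02, SE 0.05) and Myl6 (0.13, SE 0.05). The lowest log2 fold change of the 21 was -0.37. Nucb1, which is named after its values were seen (0.23, SE 0.06), was called in 7 of 14 alternatives, DESeq2 and edgeR's exact and likelihood ratio tests among them.

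The cells carried the markers of their label. All 12 pluripotency genes listed were expressed, with a summed level of 5930 and 5810 CPM in the controls and 6060 and 5905 CPM after morphine. Klf2, a transcription factor of naive pluripotency, was the only one called of the 12 (1.52% of all loci were), and 5 reached an unadjusted p under 0.05 (20.5% of all loci did). DESeq2 called 4. Of the 12 genes 4 lay above 0 and 8 below. Klf2 was among the former, rising from 146 to 183 CPM (log2 fold change 0.33, SE 0.05, edgeR adjusted p = 0.0151). Of 27 markers of differentiated or other cells, 21 were tested and 1 was called, beside 1.52% of all loci. This was Lgals1, the gene of galectin-1, rising from 78.1 to 94.5 CPM (0.27, SE 0.06, edgeR adjusted p = 0.0476). The summed level of the 27 was 438 and 449 CPM in the controls and 492 and 480 CPM after morphine, while Dcn was at 0 in every library. With length and GC trends removed neither was called, and the log2 fold change was 0.14 for Klf2 and 0.16 for Lgals1. Without morphine replicate 1 neither was called, at 0.29 and 0.23. Lgals1 also lost its call with the length trend alone removed, without control replicate 1 and without morphine replicate 2 (0.26, 0.22 and 0.32). The pluripotency sums overlapped between the conditions, and the median log2 fold change of the 12 genes was -0.02. The sums of the 27 markers were higher after morphine, with a median log2 fold change of 0.11 over the 21 tested (15 above and 6 below 0). Most of the rise in the sum lay in Vim, which encodes vimentin (248 to 271 CPM), and Lgals1. The part of these markers in the fall of S100a10 was not tested.

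**Figure D4:**
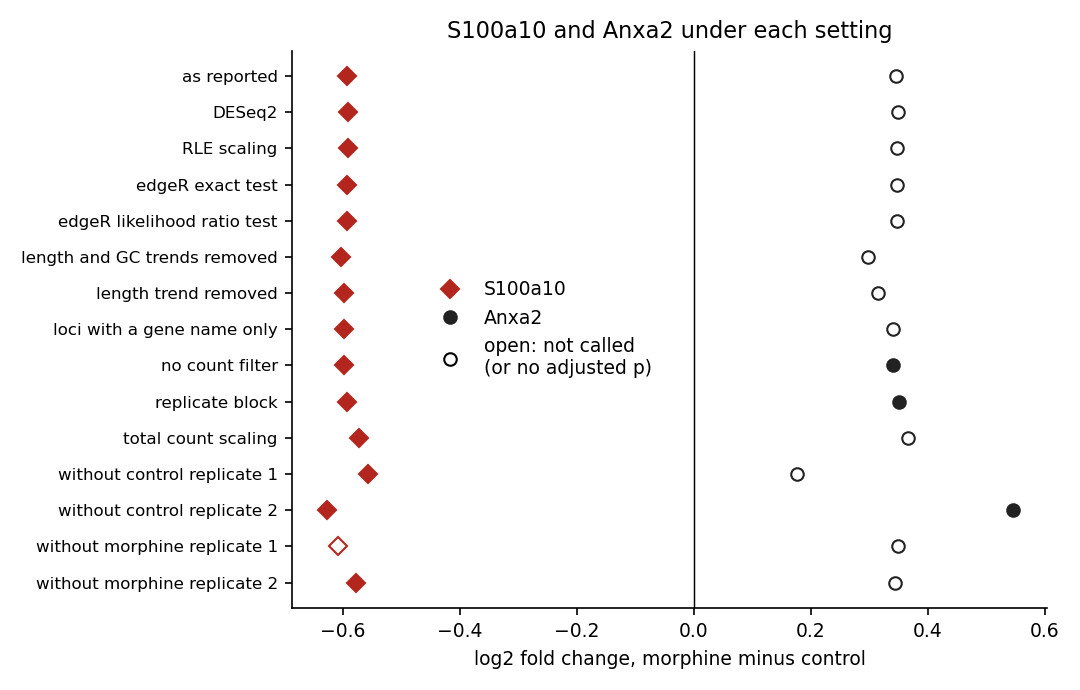
Log2 fold change of S100a10 (red diamonds) and Anxa2 (black circles) as reported and under the 14 alternatives, with filled symbols where the gene was called and open symbols where it was not or, for Anxa2 with DESeq2, where no adjusted p was given. S100a10 stays between -0.63 and -0.56 and is open only without morphine replicate 1, while Anxa2 lies between 0.18 and 0.54.

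Around the other genes, H3K27me3 peaks lay farther out. Within 50 kb of a TSS, 8 and 9 of the 10 genes had a peak in control 1 and control 2, and 6 and 8 in morphine 1 and morphine 2. The means differed by -1.5 genes, and the libraries of the conditions overlapped (two-sided exact permutation test, p = 0.667). No result of this test with 2 against 2 libraries can go below 0.33, so it cannot call a difference. In both control libraries 7 of the 10 genes had such a peak, against 54.1% of the 14204 genes, and in both morphine libraries 5 of the 10, against 52.5%. The lists differed in size, with 10305 and 13778 peaks in the controls and 8681 and 12282 after morphine. With equal numbers of the strongest peaks the difference was -2.5 genes and the libraries no longer overlapped (same exact test, p = 0.333), and without each library in turn it ran from -2.5 to -0.5, the ends being without morphine replicate 2 and without morphine replicate 1. Within 20 kb it was 1.0. Genes of the S100 cluster lie within 50 kb of the same peaks and are not separate observations.

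In that cluster, a peak over Npr1, the receptor gene of atrial natriuretic peptide, was present in all 4 libraries, with its nearer edge between 46704 bp and 47995 bp upstream of S100a13. A peak inside an intron of S100a13, which begins 5631 bp to 6115 bp downstream of its TSS, was called in control 2, morphine 1 and morphine 2 and not in control 1. An intergenic peak that begins 30511 bp to 30663 bp downstream of the S100a13 TSS was called in all libraries but morphine 1. A peak over S100a7a was present in all 4 libraries, between 42190 bp and 42552 bp downstream of the S100a6 TSS. A peak over S100a5, 3372 bp upstream of S100a6 and 3928 bp downstream of S100a4, was called in morphine 2 only. A peak over S100a3 was called in control 2 only, 24471 bp upstream of S100a4 and 33582 bp upstream of S100a6. These were the only peaks within 50 kb of S100a4, which had no more than 1 count in any library.

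S100a11 shared the S100a10 peak, 31518 bp and 31465 bp downstream of its own TSS in the controls, and had another 26324 bp and 26125 bp upstream in control 1 and control 2 and 25877 bp upstream in morphine 1. That peak had scores of 92.6 and 92.2 in the controls and 52.4 in morphine 1, near the lowest score of 50 that the lists hold, and it was not called in morphine 2. Anxa6 had a peak over Ccdc69, upstream by 42263 bp to 44046 bp, in all 4 libraries. A nearer peak over Ccdc69, 30764 bp upstream of Anxa6, was called in morphine 1 only. Anxa5 had a peak over Gm11549 in control 1 and morphine 2, and Anxa1 had different peaks in control 2 and morphine 2, both over 1500015L24Rik. Besides the peak at its start, Anxa2 had peaks in control 2, 14610 bp upstream and 43708 bp downstream. In morphine 2 it had peaks 14861 bp upstream and 43343 bp downstream.

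**Figure D5:**
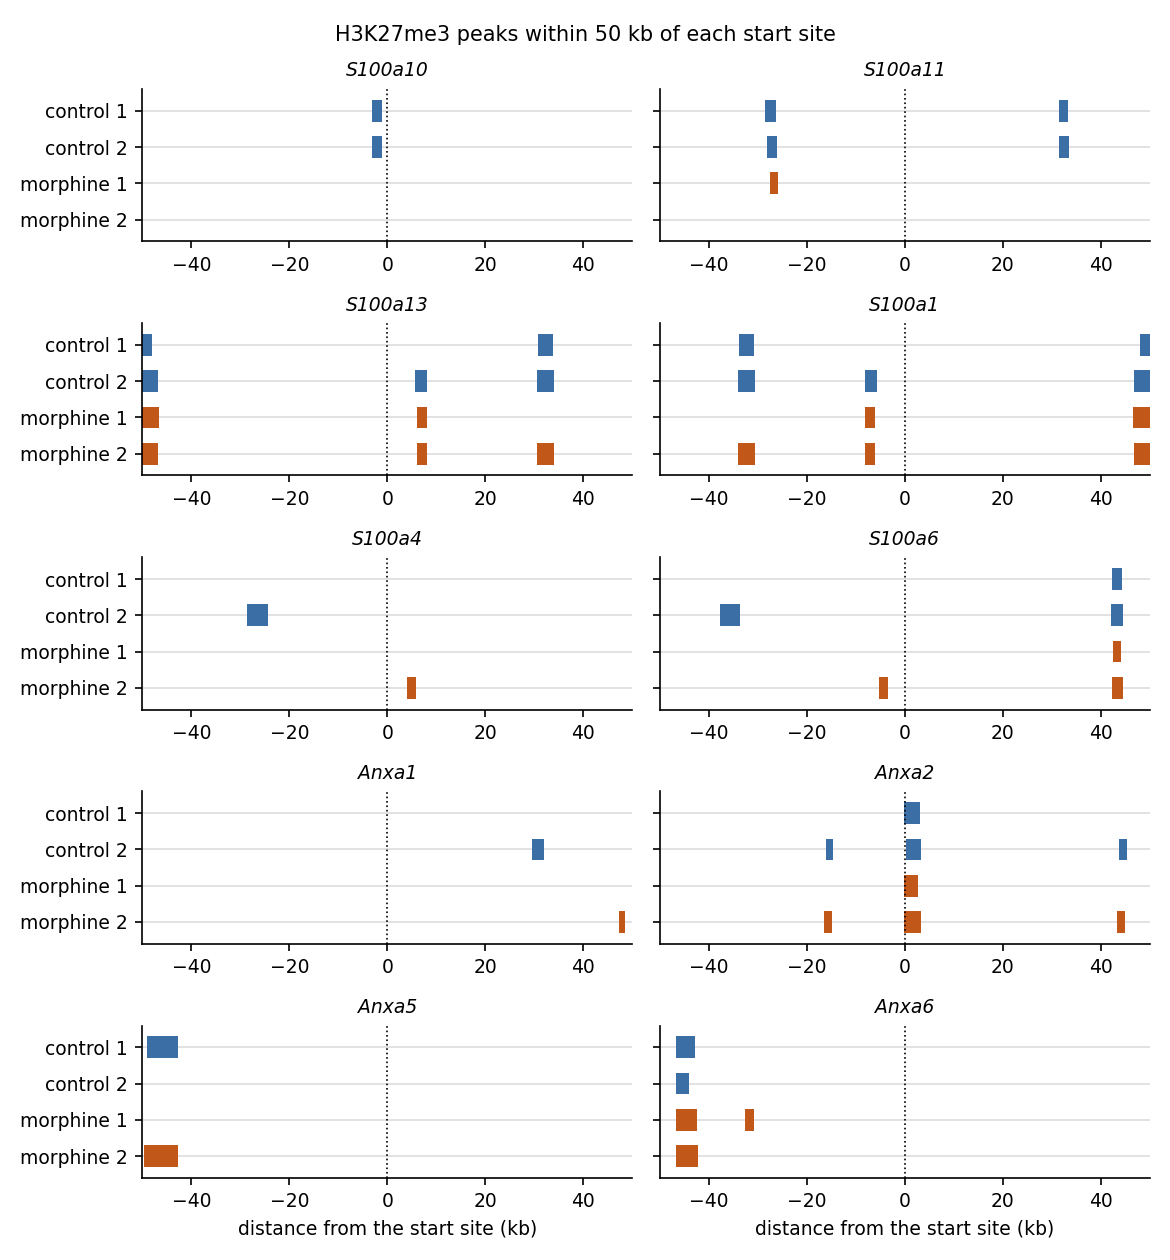
H3K27me3 peaks within 50 kb of the first annotated TSS of each of the 10 genes, with distance along the gene's strand in kb (control in blue, morphine in orange). Each bar is a called peak, trimmed at the window. S100a10 has its only bars in the 2 control rows. Anxa2 has a bar over its TSS in each row but control 2, where it begins 255 bp downstream.

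Among the 18 other S100 and annexin genes, 13 had no peak within 1 kb of a TSS in any library. Anxa3 had a promoter peak in all 4 libraries. Anxa4 had a promoter peak in both control libraries and in neither morphine library, as 106 of the 14204 genes did (0.746%), and its RNA was not called. S100a7a had a promoter peak in all libraries but morphine 1, Anxa10 in control 2 only and S100a5 in morphine 2 only. These genes were named after their peaks had been seen.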

How the data were processed

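RNA-Seq counts were deposited by the authors as raw reads per locus, after HISAT2 2.1.0 (mm10), StringTie 1.3.6 and featureCounts 1.6.4 (versions from the submitters' processing notes). The settings for strand and for reads that align more than once are not given in the sources used here. The authors mapped ChIP-Seq reads with Bowtie2 2.3.5.1, ran MACS on every library with a p-value threshold of 1e-05, and deposited position and score. Which control MACS was given is not stated, and the labels and the paper name different antibody suppliers.

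Counts were filtered with filterByExpr, TMM-normalized and tested over 20350 loci with the quasi-likelihood test of edgeR 4.0.16 in R 4.3.3 (Benjamini-Hochberg, FDR 0.05), after a test on simulated data. The SE is the log2 fold change divided by the root of the F statistic. DESeq2 1.42.0, other scalings and filters, removal of length and GC trends (splines with 5 degrees of freedom), a replicate block and leaving out each library were alternatives. Peaks were assigned by overlap with the 1 kb or 50 kb on either side of a GENCODE vM21 basic TSS, with a score of at least 100, equal numbers, midpoints, and 3 kb and 20 kb windows as alternatives. The 5 kb window and the settings for the S100a10 peak were added after the data had been seen.

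The members and gene lists were chosen with earlier results of these data known. Every member is named, and of other lists the called genes or else the 6 most abundant per kb. For genes with several rows the largest was used. Sequences came from GRCm38.p6, whose coordinates equal mm10. Replicate libraries differed by more than counting noise (chi-square per degree of freedom 6.74 in the control and 3.88 after morphine).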

Additional observations from a re-analysis of the deposited data

How the results depend on the processing

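The number of loci called, 309 in the report, was 792 with edgeR's exact test, 840 with its likelihood ratio test, 652 with DESeq2, 515 with total counts, 1657 without the count filter, 984 for loci with a gene name only and 100 once length and GC trends were removed. Leaving out each library gave 6 to 1607. With a replicate block it was 1128. Nothing in the labels says that a number marks a shared batch. The deviations of same-numbered libraries had a correlation of 0.0364 across loci. This value cannot settle whether the libraries were paired, which is not known. Of the 10 genes, 2 (S100a10 and Anxa2) were called without the count filter and with the replicate block, and 0 to 2 when a library was left out. Without morphine replicate 1 S100a10 was not called. These calls are on the contrast from which the genes were chosen and are no independent evidence. S100a6 and Anxa1, neither of them called, changed sign in 1 alternative each, and no other tested member did. The other lists, with 3 calls in the report, had 6 with DESeq2, 5 with each of the exact and likelihood ratio tests, 8 without the filter, 8 for named loci only, 7 with the replicate block, 0 with length and GC trends removed, and 0 to 8 when a library was left out. For peaks, no member had a promoter peak by its midpoint (0 in the control and 0 after morphine), and 2 had one in both controls with a 3 kb promoter, S100a10 being the added gene. Within 50 kb, 4 members in the control and 2 after morphine had peaks in both libraries at a score of at least 100, and with a 20 kb window 2 and 3. Taking a single morphine library gave 6 to 8. The difference between conditions in the mean number of members with a nearby peak turned from -1.5 to 1.0 with the 20 kb window (two-sided exact permutation test, p = 0.667), and was -2.5 with equal numbers of peaks. For these changes the cause was not tested. With 2 libraries in each condition the spread rests on few values, and S100a1 and S100a4 had too few counts to show moderate differences.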
